A study of Mus musculus with 3 samples.

Results

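The genes described are the 10 members of the insulin-like growth factor (IGF) system that make up this family: the ligands Igf1 and Igf2, the receptors Igf1r and Igf2r, and the binding proteins Igfbp2, Igfbp3, Igfbp4, Igfbp5, Igfbp6 and Igfbp7. A gene was counted when the array annotation gave a probe set its symbol and no other, and all 10 were measured, each by 1 probe set, out of 22087 named genes. Levels are log2 intensities from Affymetrix arrays, on which labelled RNA binds to sets of short probes. There was 1 group of 3 samples, Dicer1 +/- stroma, meaning live cells sorted from digested mouse tumours as negative for PECAM1, an endothelial surface protein, and for tdTomato, the red fluorescent protein of the tumour cells. Every sample shared the label Dicer1 +/-, a heterozygous genotype, Dicer1 being the nuclease that cuts microRNA precursors. Whether the sorted cells, the tumour cells or both carried it is not in the label. Age, strain, any agent given, the driver of tdTomato and whether animals were pooled are not in the labels. The title sets this stroma against ASD+/+ stroma, which was not analysed here, so genotypes were not compared. The labels name no source animals. Xist, the noncoding RNA of X inactivation, named after its values were seen, was at 9.78, 3.43 and 3.49 in samples 1 to 3, so sample 1 was not a repeat of the other arrays. For samples 2 and 3 that is not known, and SDs cover the spread between these 3 samples, part of which may be technical. With Xist high in sample 1 alone, the samples may also differ in sex. Differences of sample 1 from the others cannot be told apart from a difference of sex.

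IGF1 and IGF2 are secreted peptides that bind the tyrosine kinase receptor IGF1R and drive growth and survival through the PI3K-AKT and RAS-ERK cascades. IGF2R takes up IGF2 and delivers it to lysosomes, and it also carries lysosomal enzymes. The IGF binding proteins hold the ligands outside the cell, which can block or prolong their action, and proteases such as pregnancy-associated plasma protein A release them. Fibroblasts and smooth muscle cells are known sources of several binding proteins, and macrophages are a known source of IGF1.

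Promoter sequences are shown for Igfbp6 and Igf1, the members with the widest ranges over the samples, and for Igfbp3 and Igf1r, whose samples came in another order. Each runs from 250 bases before to 50 bases after the gene's start, 5′ to 3′ on the gene's strand, as RefSeq gives it on GRCm38.p6. Capitals mark the TATA box TATAAA, the GC box GGGCGG and the CCAAT box CCAAT, each searched on both strands. The windows are chr15:102143936-102144235 (+ strand) for Igfbp6, chr10:87860861-87861160 (+ strand) for Igf1, chr11:7213874-7214173 (- strand) for Igfbp3 and chr7:67952007-67952306 (+ strand) for Igf1r.
Igfbp6: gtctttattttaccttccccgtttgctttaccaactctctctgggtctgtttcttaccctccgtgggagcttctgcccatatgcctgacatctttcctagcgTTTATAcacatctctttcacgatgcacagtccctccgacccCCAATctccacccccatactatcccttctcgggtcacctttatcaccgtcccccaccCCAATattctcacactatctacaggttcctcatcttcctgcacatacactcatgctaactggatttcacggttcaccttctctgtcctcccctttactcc
Igf1: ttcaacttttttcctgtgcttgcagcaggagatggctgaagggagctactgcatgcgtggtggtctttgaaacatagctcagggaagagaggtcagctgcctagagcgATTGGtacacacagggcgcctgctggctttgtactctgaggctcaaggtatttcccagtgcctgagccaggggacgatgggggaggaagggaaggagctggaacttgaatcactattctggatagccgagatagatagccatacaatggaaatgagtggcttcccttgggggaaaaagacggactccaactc
Igfbp3: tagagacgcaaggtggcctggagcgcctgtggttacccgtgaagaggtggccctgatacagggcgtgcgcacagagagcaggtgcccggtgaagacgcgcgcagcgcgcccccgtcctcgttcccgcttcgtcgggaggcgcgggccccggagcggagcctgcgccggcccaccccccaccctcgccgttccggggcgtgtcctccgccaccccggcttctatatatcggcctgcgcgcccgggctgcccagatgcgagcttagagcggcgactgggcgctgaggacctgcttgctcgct
Igf1r: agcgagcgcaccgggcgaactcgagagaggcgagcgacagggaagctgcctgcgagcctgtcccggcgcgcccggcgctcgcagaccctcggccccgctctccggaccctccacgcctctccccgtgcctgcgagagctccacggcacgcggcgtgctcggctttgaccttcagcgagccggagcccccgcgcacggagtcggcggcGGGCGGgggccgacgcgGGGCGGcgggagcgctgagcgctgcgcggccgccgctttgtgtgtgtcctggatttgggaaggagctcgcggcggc

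The Igfbp6 window held a TATA box on the opposite strand, with its first printed base at position -148 from the start, and CCAAT boxes at -107 and -50. Igf1 had a CCAAT box on the opposite strand at -142, with no TATA or GC box in these letters. Igf1r, a promoter with 76% G or C, had GC boxes at -43 and -26. Igfbp3, with 71.7% G or C, had none of these exact letters. Variants of them, such as the tatata in its window, were not searched. TATAAA occurred in 2 of 14 promoter windows of the members, against 13.6% of 32851 windows of all genes. GGGCGG occurred in 6 of the 14, against 35.7% of all windows, CCAAT in 3, against 37.4%, and the E-box CANNTG, which reads the same on both strands and is not capitalised, in 10, against 72.3%. The 14 windows cover all 10 genes, Igf2 with 4 starts and Igfbp2 with 2, and their median content of G and C was 64%, against 52.7% over all windows. A match to such letters is a description of the sequence alone.

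All 10 genes were detected. A gene counted as detected when it exceeded, on every array, the 95th percentile of 1438 probe sets for smell, pheromone and taste receptors, genes of sensory tissues, which stood at 5.16, 5.11 and 5.20 in samples 1 to 3. The smallest margin over that level was 1.24, for Igfbp2. Of 20648 other named genes outside the receptors 60.5% were detected. With the 99th percentile in its place 9 of the 10 passed, and Igfbp2 was above the level on 2 of the 3 arrays. The share of other genes above that higher level was not computed. Brightness differs between probes, so the levels of different genes were not ranked.

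**Figure D1:**
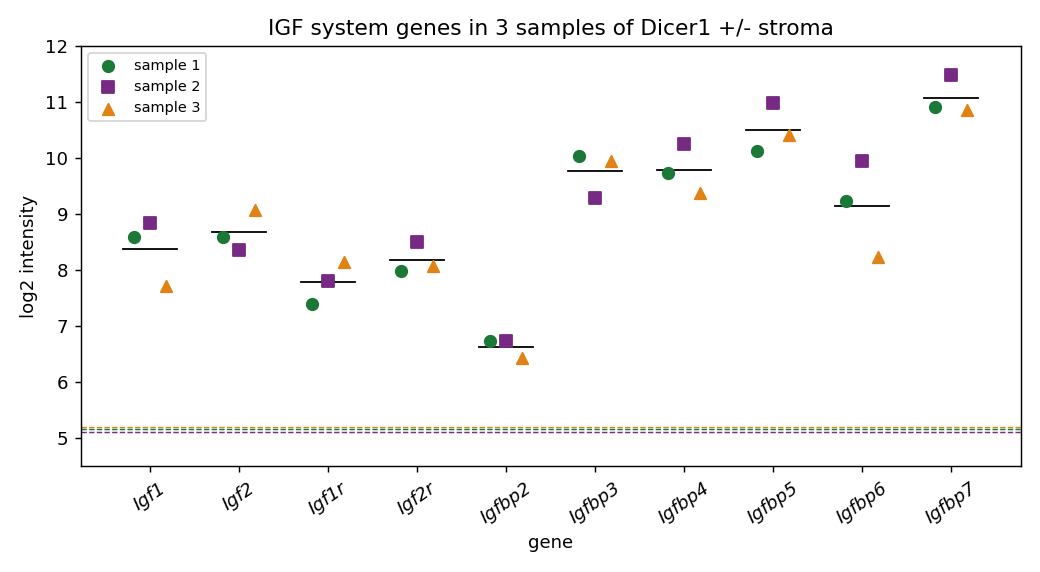
Log2 intensity of the 10 IGF genes in samples 1, 2 and 3 of Dicer1 +/- stroma (circles, squares and triangles), with black bars for the mean of the 3 samples and dashed lines for the detection level of each array. Every point lies above the lines, and Igfbp6 has the widest spread, with a range of 1.71; heights of different genes are not comparable.

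Of the ligands, Igf1 was lowest in sample 3 and Igf2 was highest there. Igf1, which many stromal cells and macrophages secrete, stood at 8.60, 8.83 and 7.72 in samples 1, 2 and 3, with a mean of 8.38 ± 0.59 (SD, n = 3). Samples 1 and 2 lay within 0.23 of each other and sample 3 was 0.88 below the nearer of them, so that sample 2 was 2.17-fold above sample 3. Without sample 3 the range of Igf1 was 0.23, from 1.12. Igf2, the imprinted fetal growth factor expressed from the paternal copy, stood at 8.59, 8.36 and 9.08, with a mean of 8.67 ± 0.37 (SD, n = 3). Here sample 3 was 1.64-fold above sample 2, and without sample 3 the range was 0.22, from 0.72.

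The Igf2 locus also holds a microRNA gene, Mir483, which lies inside Igf2 in the RefSeq gene table and whose products need DICER1 to mature. Its mature products are shown with the seed, bases 2 to 8, in capitals, because their precursor comes from a member gene and the seed sets which mRNAs a microRNA pairs with. Both are on the - strand of GRCm38.p6, at chr7:142654932-142654952 for the 3p product and chr7:142654968-142654989 for the 5p product.
mmu-miR-483-3p: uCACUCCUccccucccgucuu
mmu-miR-483-5p: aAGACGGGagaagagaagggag
The probe set of the Mir483 gene, named after its values were seen, stood at 7.58, 7.85 and 7.67 in samples 1 to 3, above the detection level on all 3 arrays, with a range of 0.27. The highest sample was sample 2 for Mir483 and sample 3 for Igf2. Such a probe set can read the host transcript or the precursor, and it does not measure the mature microRNA. The probe set Igf2os, a transcript antisense to Igf2 that was also named after its values were seen, stood at 5.27, 5.17 and 5.01, above the level on 2 of 3 arrays.

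Both receptors differed by less than 2-fold between the samples. Igf1r, the signalling receptor, stood at 7.40, 7.80 and 8.15 in samples 1 to 3, with a mean of 7.78 ± 0.38 (SD, n = 3), and sample 3 was 1.68-fold above sample 1. Without sample 1 its range was 0.35, from 0.75. Igf2r, the clearance receptor, stood at 7.98, 8.50 and 8.08, with a mean of 8.19 ± 0.28 (SD, n = 3). Sample 2 was 1.43-fold above sample 1, and without sample 2 the range was 0.10, from 0.52.

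Among the binding proteins, 5 of 6 were highest in sample 2 as deposited, beside 32.5% of 13626 other genes detected on at least 1 array, and 2 of 6 were when the arrays were set to equal medians of fibroblast markers, beside 2.6% of those genes. Igfbp6, a secreted protein that prefers IGF2 over IGF1, stood at 9.24, 9.94 and 8.23 in samples 1 to 3, with a mean of 9.14 ± 0.86 (SD, n = 3). These were well apart, with sample 2 at 3.26-fold of sample 3 and sample 1 between them. Its range of 1.71 exceeded that of 98.9% of the 13636 genes detected on at least 1 array, and was 0.70 without sample 3. Igfbp4, which inhibits IGF action until a protease cleaves it, stood at 9.74, 10.25 and 9.38, with a mean of 9.79 ± 0.43 (SD, n = 3). It kept the same order as Igfbp6, with sample 2 at 1.82-fold of sample 3, and had a range of 0.36 without sample 2, from 0.86.

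Igfbp5, which binds to extracellular matrix, stood at 10.12, 10.98 and 10.41, with a mean of 10.50 ± 0.44 (SD, n = 3). Sample 2 was again the highest, but sample 1 and not sample 3 was the lowest, at a 1.81-fold difference. Igfbp7, a relative that binds IGFs weakly and is also known from blood vessel walls, stood at 10.91, 11.47 and 10.85, with a mean of 11.08 ± 0.34 (SD, n = 3). Its samples 1 and 3 lay within 0.053 of each other and sample 2 was 1.54-fold above sample 3. Without sample 2 the range was 0.29 for Igfbp5, from 0.86, and 0.053 for Igfbp7, from 0.62.

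Igfbp3, the main carrier of IGFs in blood, ran the other way. It stood at 10.04, 9.29 and 9.95, with a mean of 9.76 ± 0.41 (SD, n = 3), and sample 1 was 1.69-fold above sample 2. Samples 1 and 3 differed by 0.093, which is the range without sample 2, from 0.75. Igfbp2, a carrier that also binds integrins, varied least, at 6.73, 6.74 and 6.44, with a mean of 6.63 ± 0.17 (SD, n = 3). Its samples 1 and 2 differed by 0.0048 and sample 3 was 1.23-fold below sample 2. Igfbp2 and Igfbp5 are neighbours on the chromosome, with no other protein-coding gene starting between them, and their lowest samples were sample 3 and sample 1.

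The 10 genes were then set against all genes for the size of the differences between samples. Igfbp6 and Igf1, 2 of the 10, had a range above 1 (2-fold), against 5.69% of 13626 other genes detected on at least 1 array. A 1.5-fold range was passed by 8 of the 10, all but Igf2r and Igfbp2, against 19.9% of the other genes. The median range was 0.75 for the members and 0.31 for the other genes, and the median SD was 0.39 and 0.16. Among the lists of cell type markers, median ranges went from 0.34 for adipocyte to 2.13 for T cell markers. They were 0.87 for fibroblast and 1.16 for pericyte and smooth muscle markers, so wide ranges were not particular to the members. The count of members above 2-fold was 0 without sample 3 and 1 without sample 2, and no share of other genes was computed for these. With arrays set to equal fibroblast marker medians neither Igfbp6 nor Igf1 passed, at 0.85 and 0.37, and Igf2, Igfbp3 and Igf1r did, 3 of 10 beside 31.3% of the other genes. Each sample was on 1 array, so differences between samples and array error cannot be told apart and no test was possible.

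**Figure D2:**
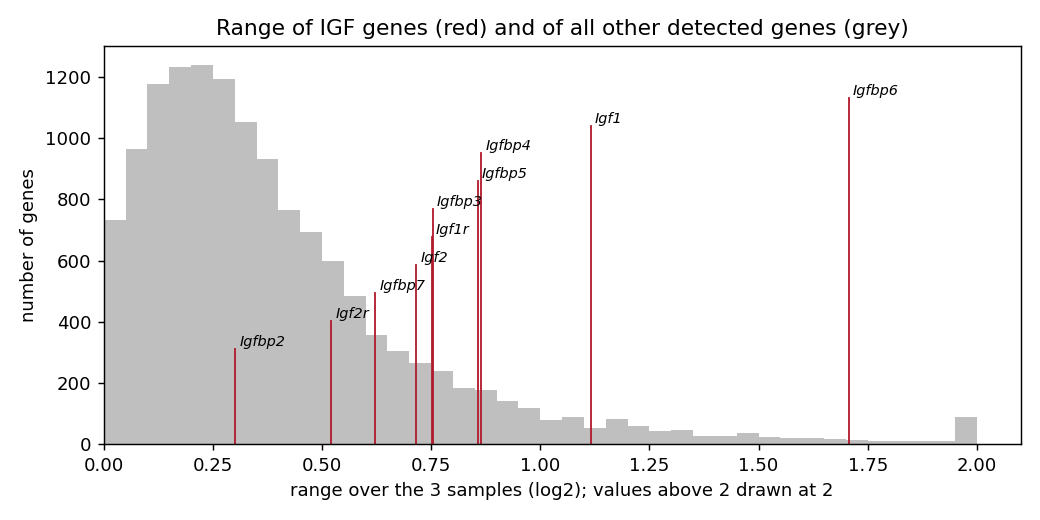
Range over the 3 samples (log2, highest minus lowest) of the 10 IGF genes, as red lines with heights set for legibility, over a histogram of the ranges of 13626 other detected genes in grey. Igfbp2, at 0.30, lies near the middle of the histogram, with the median at 0.31, and Igfbp6, at 1.71, lies in its tail.

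In the deposited values 7 of the 10 genes were highest in sample 2, against 32.5% of the other genes, and 5 were lowest in sample 3, against 33.3%, and with arrays set to equal fibroblast marker medians both counts were 2, beside 2.6% and 2.16% of the other genes. On the deposited scale 5 genes met both conditions, Igf1, Igfbp2, Igfbp4, Igfbp6 and Igfbp7, as did 17.9% of the other genes. Sample 3 was the highest for 2 genes, Igf2 and Igf1r, beside 32.8% of other genes, and sample 1 for 1 gene, Igfbp3, beside 28.8%. Sample 1 was the lowest for 3 genes, Igf1r, Igf2r and Igfbp5, beside 31.2% of other genes, and sample 2 for 2 genes, Igf2 and Igfbp3, beside 29.4%. After subtraction of each gene's mean, the closest pair of profiles was Igf2r and Igfbp7, at a Euclidean distance of 0.15 over the 3 samples, and Igf1 and Igfbp6 were 0.44 apart.

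Markers of the cell types in the gate moved between the same samples. The 12 fibroblast markers were all detected, 11 had their maximum in sample 2 and 12 their minimum in sample 3. Their summed linear intensity was 18620, 23478 and 12766 in samples 1 to 3, with Pdgfra, a fibroblast receptor, at 8.55, 9.24 and 7.82. The collagen genes Col1a1 and Col1a2 stood at 10.23, 10.43 and 9.79 and at 10.54, 10.73 and 9.98. The 10 pericyte and smooth muscle markers were all detected, 9 of them highest in sample 2, and summed to 4993, 8353 and 3668, with Rgs5, a pericyte gene, at 9.93, 10.64 and 9.47. Cspg4, a pericyte proteoglycan, stood at 7.01, 7.86 and 7.52, and the receptor Pdgfrb at 8.87, 9.67 and 8.70. In RNA from many cells, fewer cells of a type and less RNA per cell cannot be told apart. The part of the pericyte markers in the order of Igfbp6, Igf1, Igfbp4 and Igfbp7 was not tested.

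Each array was shifted so that the median of the fibroblast markers was equal, which moved all genes by -0.06, -0.40 and 0.45 in samples 1 to 3 and so favours sample 3 and lowers sample 2 in every gene alike. On that scale the range was 0.37 for Igf1, 0.16 for Igfbp4 and 0.85 for Igfbp6, with sample 2 still highest and sample 3 lowest for Igfbp6. Ranges became wider for Igf2, at 1.57, for Igfbp3, at 1.51, and for Igf1r, at 1.26, each highest in sample 3. Sample 3 was the highest for 7 of the 10 genes there, beside 91.7% of the other genes, a move that the shift itself brings. Sample 2 was the highest for Igfbp4 and Igfbp6 and sample 1 for Igf1.

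**Figure D3:**
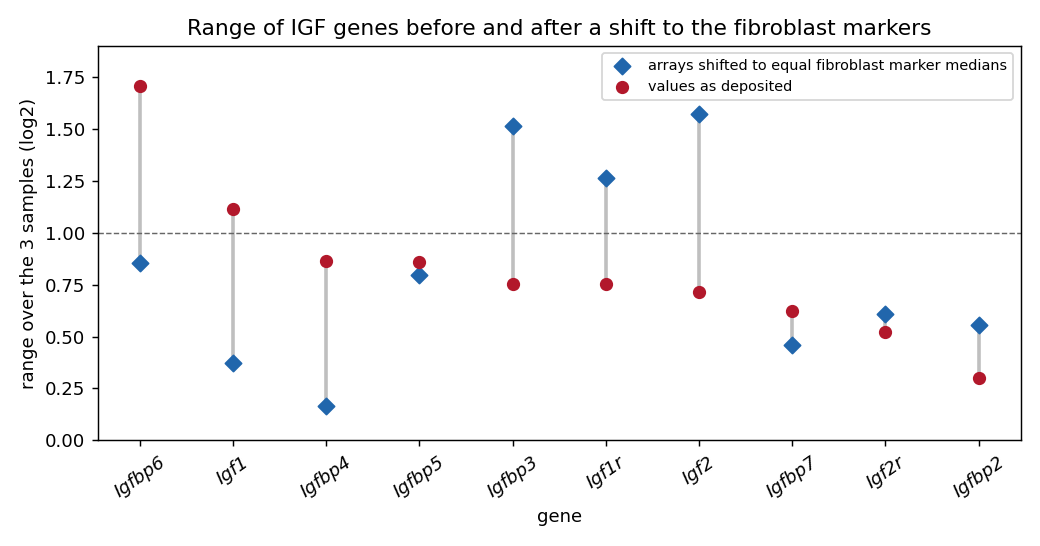
Range over the 3 samples (log2) of each IGF gene as deposited (red circles) and with the arrays shifted to equal medians of the 12 fibroblast markers (blue diamonds); the dashed line marks a range of 1. The range is 0.37 against 1.12 for Igf1 and 1.57 against 0.72 for Igf2.

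The 11 measured macrophage and monocyte markers were all detected and summed to 13614, 14387 and 11699 in samples 1 to 3, the same order as the fibroblast sums. Their median deviations from each marker's mean had another order, at 0.18, 0.15 and -0.31, with sample 1 highest. Sample 2 held the maximum of 6 of these markers, sample 1 of 3 and sample 3 of 2. Sample 3 held the minimum of 7 and sample 1 of 4. Cd68, a lysosomal macrophage protein, stood at 10.80, 10.88 and 10.82, while Adgre1, an adhesion receptor of macrophages, stood at 9.46, 9.19 and 8.47, and Csf1r, the receptor for CSF1, at 10.35, 10.54 and 9.99. With arrays set to equal medians of these markers, the range of Igf1 was 0.70 and that of Igfbp6 was 1.29, with sample 2 highest and sample 3 lowest for both.

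Lists whose sums had their maximum in sample 3, as Igf2 and Igf1r had, were those for cartilage and bone, muscle, neutrophils, dendritic cells and endothelium. The cartilage and bone markers, 5 of 6 detected, summed to 1220, 2207 and 3425, with the cartilage matrix genes Acan at 8.10, 9.07 and 9.94 and Col2a1 at 8.10, 9.11 and 9.66, and their regulator Sox9 at 7.58, 8.10 and 8.35. The myogenic and muscle markers, 9 of 11 detected, summed to 1243, 1045 and 1967, and 7 of the 11 were highest in sample 3. The myogenic factors Myod1, at 6.42, 6.30 and 6.42, and Myog, at 7.37, 6.95 and 7.37, were tied between samples 1 and 3. Myf5, at 7.21, 6.87 and 7.18, was highest in sample 1. The neutrophil markers, all 10 detected, summed to 22096, 24829 and 29868, with the granulocyte alarmins S100a8 at 12.47, 12.43 and 12.43 and S100a9 at 12.29, 12.25 and 12.34, and the receptor Csf3r at 8.62, 9.04 and 9.83. The endothelial markers, which the gate should leave out, were detected in 6 of 10 cases, beside 60.5% of other named genes. They summed to 717, 663 and 1158. Pecam1 itself stood at 8.02, 7.20 and 8.25, above the detection level in every sample, the endothelial cadherin Cdh5 at 6.17, 6.75 and 7.81, and the VEGF receptor Kdr at 5.47, 5.21 and 6.09. Which cells the RNA of Pecam1 and the other endothelial markers came from was not tested.

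Lymphoid and dendritic markers had their minimum in sample 2 or close to it, where Igf2 and Igfbp3 were lowest. All 6 measured T cell markers were detected, with the maximum in sample 1 and the minimum in sample 2, and summed to 1492, 368.0 and 808 in samples 1 to 3, with the T cell receptor subunits Cd3e at 8.59, 6.49 and 8.04, Cd3d at 8.06, 5.89 and 7.23 and Cd3g at 8.42, 5.14 and 7.33. All 6 measured B cell markers were highest in sample 1, as Igfbp3 was, with 4 of 6 detected and sums of 3331, 1462 and 1448. Unlike these sums, Igfbp3 was nearly as high in sample 3, at 0.093 below sample 1. The B cell receptor subunits Cd79a and Cd79b stood at 9.48, 8.57 and 8.44 and at 10.40, 9.67 and 9.53, and Ms4a1, which encodes CD20, at 9.05, 6.34 and 6.45. All 7 measured dendritic cell markers were detected and lowest in sample 2, with sums of 6988, 5450 and 8141. Flt3, a dendritic cell receptor, stood at 6.74, 6.66 and 8.36, the integrin Itgax at 8.19, 7.09 and 8.72, and the lectin Cd209a at 8.25, 7.41 and 9.06. The adipocyte markers, 4 of 6 detected, summed to 717, 594 and 691. The part of all these lists in the levels of Igf2, Igf1r and Igfbp3 was not tested.

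**Figure D4:**
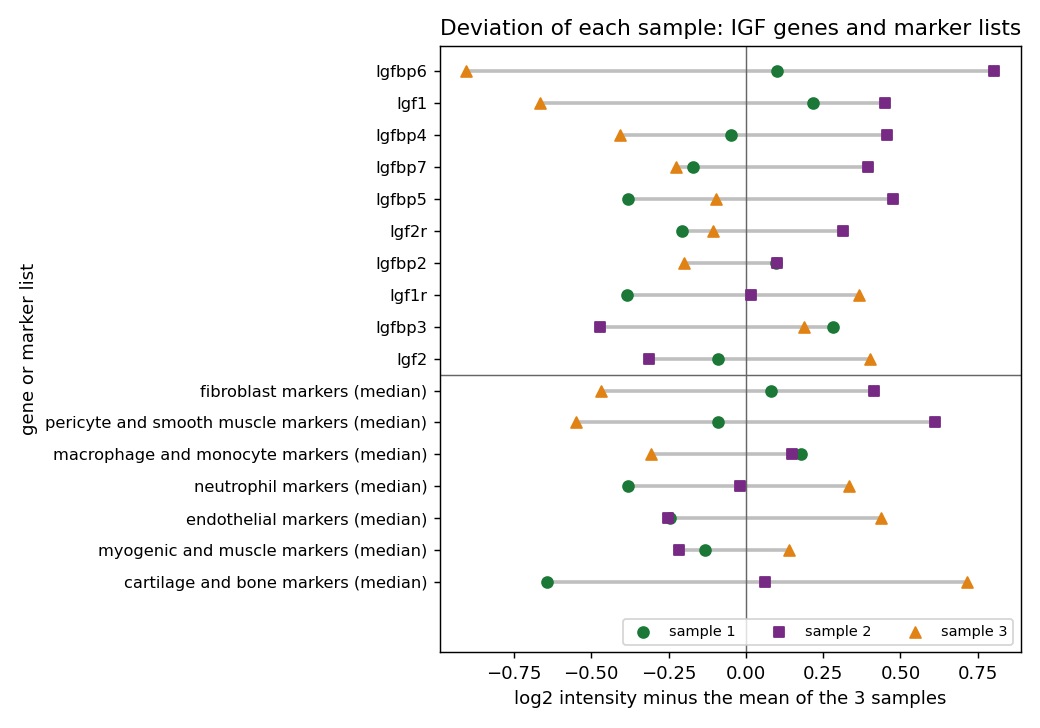
Log2 intensity of each sample minus the mean of the 3 samples, for the 10 IGF genes (above the line) and for the median over the markers of 7 cell types (below it). As deposited, Igfbp6 deviates by 0.10, 0.80 and -0.90 and the fibroblast markers by 0.08, 0.41 and -0.47 in samples 1 to 3, while Igf2 is highest in sample 3. With arrays set to equal fibroblast marker medians 2 of the 10 genes are highest in sample 2, beside 2.6% of other genes.

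The genes whose 3 centred values were closest to those of Igfbp6, among 12507 others detected on all arrays, were Cnn1, a smooth muscle calponin, at a distance of 0.051, Aoc3, an amine oxidase of smooth muscle, adipocytes and vessels, at 0.057, and Flrt2, a membrane protein of the FLRT family, at 0.096. Cnn1 stood at 8.15, 8.92 and 7.16 in samples 1 to 3, Aoc3 at 8.10, 8.79 and 7.16, and Flrt2 at 7.33, 7.96 and 6.38. The median distance over all these genes was 1.22. Over 3 samples many genes can lie this close, and nothing follows from it about shared control.

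The rest of the IGF pathway was read from a list of 54 genes, with 42 of them on a probe set of their own and 35 detected (83.3%, beside 60.5% of named genes). There were 7 that were not detected on all arrays. Insulin 2 (Ins2) stood at 3.63, 3.60 and 3.14 in samples 1 to 3, and the insulin receptor-related gene Insrr at 4.21, 3.88 and 4.13. Igfbp1 and Igfals, liver carriers of circulating IGFs, averaged 4.67 ± 0.11 and 4.41 ± 0.16 (SD, n = 3 each), and Igfbpl1 was at 4.23 in all 3 samples. Stc1, an inhibitor of PAPP-A proteases, averaged 4.77 ± 0.16 (SD, n = 3). Pappa2, a protease of Igfbp5 and Igfbp3, stood at 5.03, 5.84 and 4.60, above the level in sample 2 only.

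Proteases of the binding proteins and their inhibitors were highest in sample 2 in 6 of 6 cases on the deposited scale, beside 32.5% of all other genes, with Pappa2 and Stc1 not detected on all arrays. The count was 1 of 6 with arrays set to equal fibroblast marker medians, beside 2.6% of other genes, and 2 of 6 with equal macrophage marker medians, beside 9.39%. Pappa, which cleaves IGFBP4, stood at 5.67, 6.65 and 6.28 in samples 1 to 3, and Htra3, a secreted serine protease, at 8.25, 8.47 and 7.39. Htra3, with a range of 1.08, and Pappa2, with 1.24, were the 2 pathway genes above a range of 1. Pappa was lowest in sample 1 and Htra3 lowest in sample 3, so the proteases had no single order.

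The insulin receptor Insr, which can pair with IGF1R, stood at 7.75, 7.85 and 8.12 in samples 1 to 3. The receptor adaptor Irs1 stood at 7.24, 7.63 and 7.60, and the kinase subunit Pik3ca at 8.38, 8.31 and 8.36. Nras, a RAS GTPase, stood at 8.73, 8.86 and 8.91. Over the 24 measured genes of the adaptor, PI3K-AKT and RAS-ERK lists, all detected, the median range was 0.27 and none passed 1. Ghr, the growth hormone receptor, stood at 6.22, 6.59 and 6.30, and Igf2bp3, which binds Igf2 mRNA, at 5.35, 5.46 and 5.35.

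Dicer1 stood at 8.10, 8.10 and 8.08 in samples 1 to 3, and its level in 1 genotype says nothing of the allele. Exactly equal deposited values on at least 2 arrays occurred in none of the 10 IGF genes and in 10.8% of genes detected on at least 1 array, so the SDs given for the 10 hold no tied values.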

How the data were processed

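RNA of 3 samples of 1 group was measured on 1 Affymetrix array each. The authors deposited log2 intensities, 1 per probe set and array, from 2.00 to 13.18, with array medians of 5.35, 5.34 and 5.36; the log2 scale was read from the values. Per the submitters' processing notes Partek was used, without a version, and how background was corrected, probes summarized and arrays normalized is not given in the sources used here. Of 31873 probe sets, GEO's platform annotation gave 1 symbol for 23094, several for 1764 and none here for 7015; only the first were used, with the brightest probe set per gene. All 10 members matched RefSeq (GRCm38.p6), whose promoter and microRNA sequences are printed. Ranges, detection and deviations were computed in Python 3.11.15 with numpy 2.4.6 and pandas 2.3.3. The code for ranges, detection and the highest sample was also run on simulated data with large planted differences. That run checks the code alone and says nothing of the error in these data. The number of arrays limits the precision.

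The members and lists were chosen with earlier results of these data known. The named genes were the 10 members; pathway genes that were not detected, had a range above 1 or came first in their list; the first 3 measured markers of each list described beyond its sums, with Pecam1 and Dicer1; and the 3 genes closest to the most variable member. Alternatives changed the detection level, the scaling, the summary of probe sets and the range threshold, and left out each sample.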

Additional observations from a re-analysis of the deposited data

How the results depend on the processing

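The count of detected members was 9 or 10 under every alternative tried, for which no share of other genes was computed. The count with a range above 1, 2 as reported, was 3 with arrays set to equal fibroblast marker medians (Igf2, Igfbp3 and Igf1r in place of Igf1 and Igfbp6), 4 with equal macrophage marker medians, 8 at a 1.5-fold threshold, 1 at a range above 1.5, and from 0 to 2 when 1 sample was left out. Members highest in sample 2, 7 as reported, were 2 with arrays set to equal fibroblast marker medians, beside 2.6% of other genes. They were 6 with equal macrophage marker medians, beside 9.39% of other genes, and 7 or 8 when sample 1 or 3 was left out. Members lowest in sample 3, 5 as reported, were 2 with the fibroblast shift, beside 2.16% of other genes, and 3 with the macrophage shift. They were 6 or 7 when sample 2 or 1 was left out. With 1 sample left out, a gene without a tie is highest in 1 remaining sample and lowest in the other. No share of other genes was computed for counts with a sample left out. The same holds for ranges above 1.5 and for the macrophage counts of ranges and of lowest samples. Those counts cannot be set against all genes. Each marker shift moves every gene of an array by the same amount, and why the markers differ was not tested. The macrophage shift moved all genes by -0.07, -0.17 and 0.24 in samples 1 to 3. Quantile normalization and equal array medians left the reported counts of ranges above 1, highest in sample 2 and lowest in sample 3 as they were. Most alternatives could not move a member's mean by 1 SD by construction; quantile normalization could, and moved none of the 10 that far. The range moved by more than 1 SD in 10 of 30 that left out a sample and in 8 of 50 others. All 8 were under the fibroblast or the macrophage shift. Averaging the probe sets of a gene, counted among the 50, could change nothing because each member had 1 probe set. No paired analysis was possible because there is 1 group. With 1 array a sample, no difference between samples has an error of its own.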
